A study of Mus musculus with 14 samples.

Results

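The 7 genes described here are mouse liver genes of glucose handling whose transcripts respond to insulin or to fasting: Igfbp1, Pck1, G6pc, Pfkfb1, Irs1, Irs2 and Ppargc1a. They were found by matching the accession of each array probe to RefSeq, which gave 9 probes of 55681, with 2 each for Irs1 and Ppargc1a. All 7 genes and all 9 probes were bright enough to be tested, among 21976 genes and unnamed features. The livers came from 14 female B6C3F1 mice, obtained at 5 to 6 weeks of age. By gavage for 3 weeks, 4 control mice received corn oil, the vehicle, alone, 5 mice received furan at 1 mg/kg of body weight and 5 received furan at 8 mg/kg. All 14, controls included, drank BrdU (bromodeoxyuridine, a thymidine analogue that labels new DNA) for 5 days, and livers were collected 4 h past the final dose. Furan, a heterocyclic product of heated food, is oxidised in liver to a reactive dialdehyde. Liver RNA was labelled with Cy5 and a pooled mouse reference RNA with Cy3, so that each value is a log2 ratio of liver over reference for 1 mouse. Feed was freely available, and the labels used here do not state when each mouse last ate.

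In a fed animal, insulin acts through its receptor and the docking proteins IRS1 and IRS2 to activate the kinase AKT, which keeps the transcription factor FOXO1 out of the nucleus. In fasting, insulin falls, glucagon raises cyclic AMP, and FOXO1, CREB and the coactivator PGC-1alpha together raise the genes for glucose production. Liver then makes glucose from lactate, glycerol and amino acids and slows glycolysis.

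The arrays lay on 5 slides, and slide was a larger source of variation than dose. Principal component 1 (30.2% of the variance) was 86.4% between slides, with slide 3 apart from the others, and component 2 (16.5%) was 84.7% between doses. Slides 1 to 4 each held 1 control mouse and 1 mouse of each dose, and slide 5 held 1 mouse of each dose. The test was limma's, with slide as a block and p-values adjusted over all 21976 features. All 10 hepatocyte markers were well above background on every array; Cps1, one of them, fell at 8 mg/kg. Of 8 kidney markers, listed because kidney also makes Pck1 and G6pc, Kap, Slc12a1, Slc22a12 and Umod were above background on no array. Of the 3 that could be tested at 8 mg/kg against control, Slc22a6 was at 0.35 and Miox at 0.29 (adjusted p = 0.174 for both) and Slc34a1 at -0.04; the summed kidney level was 1.97 to 2.28 (log2) in controls, 2.04 to 2.26 at 1 mg/kg and 2.09 to 2.62 at 8 mg/kg. Of 9 pancreas markers Gcg and Prss2 were above background on no array, and Amy2a5 fell. The summed level of the 5 pancreas markers that could be tested was 5.56 to 6.21 (log2) in controls and 4.77 to 5.45 at 8 mg/kg. Of 6 intestine markers Lct was above background on no array and Fabp2 fell. The summed level of the 3 that could be tested (Fabp2, Vil1 and Apoa4) was 8.04 to 9.35 in controls and 7.69 to 8.63 at 8 mg/kg. Whether this level came from intestine or from liver cells was not tested. Of 8 adipocyte markers, 3 could be tested (Cfd, Fabp4 and Plin4). Their summed level was 2.86 to 3.30 in controls, 2.94 to 6.01 at 1 mg/kg and 2.86 to 4.28 at 8 mg/kg. The part of these markers in the results was not tested.

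At 8 mg/kg against control, Igfbp1 rose and Pfkfb1 fell, and the other 5 genes did not pass the test. Igfbp1, a secreted protein that binds insulin-like growth factors, was 2.15-fold higher, a value that depends on how its faint reference signal is treated. Pfkfb1, the enzyme that sets the level of the chief activator of glycolysis in liver, was at 0.658 of control. The genes for the enzymes that commit liver to glucose output, Pck1 and G6pc, were at 0.906 and 0.893 of control, with 95% confidence intervals that included no change. Thus 2 of the 7 genes passed, 1 in each direction, where 4.09% of all features did (2.73% higher and 1.36% lower). This is no test of enrichment, because the 7 genes were chosen with earlier results of these data known. At an unadjusted p under 0.05 the count was 3 of 7, with Irs1, against 20.3% of features. The median log2 difference was -0.14 over the 7 genes and 0.002 over all features. In whole liver, fewer cells of a type and less RNA per cell cannot be told apart.

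**Figure D1:**
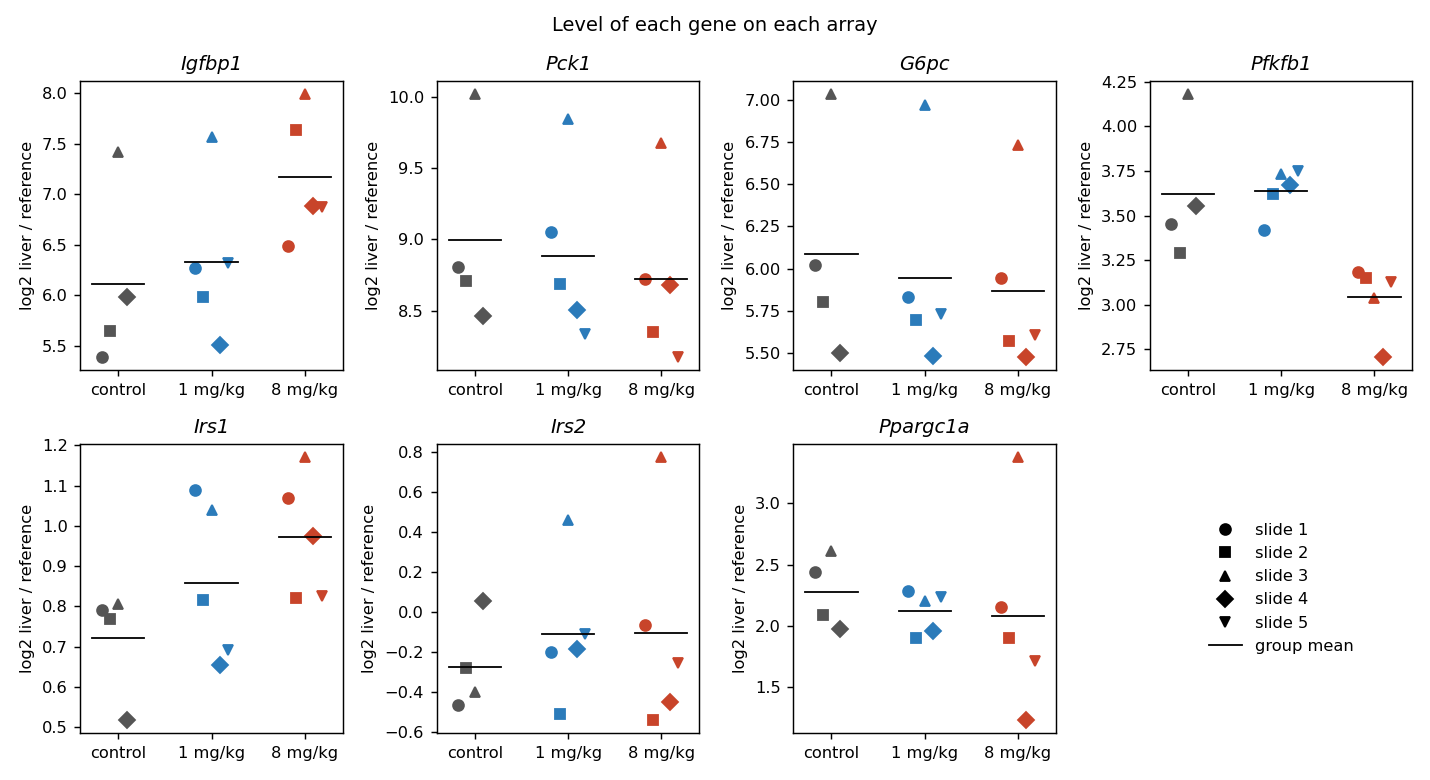
Log2 ratio of liver over reference RNA for each gene (vertical axis, own scale per panel) in the control, 1 mg/kg and 8 mg/kg groups; each point is 1 mouse, its shape gives the slide, and the line is the group mean. Within each group the mouse on slide 3 had the highest Igfbp1, Pck1 and G6pc, and the 8 mg/kg mice lay below all others for Pfkfb1.

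The sequence before the start site is shown for Igfbp1, which rose, and for G6pc, Irs1, Irs2 and Pck1, which did not pass the test. The windows of Pfkfb1, which fell, and of Ppargc1a are not printed. Each line is the 250 bases before the start site from RefSeq (assembly GRCm38.p6), 5′ to 3′ along the gene. The windows are chr11:7197537-7197786 on the plus strand for Igfbp1, chr11:101367466-101367715 on the plus strand for G6pc, chr1:82291440-82291689 on the minus strand for Irs1, chr8:11008930-11009179 on the minus strand for Irs2 and chr2:173152823-173153072 on the plus strand for Pck1. Capitals mark CAAAACA, the core of the insulin response element, TGACG, the core of a cyclic AMP response element, and TATAAA, each on either strand, so that TGTTTTG is CAAAACA and CGTCA is TGACG read on the other strand.
Igfbp1: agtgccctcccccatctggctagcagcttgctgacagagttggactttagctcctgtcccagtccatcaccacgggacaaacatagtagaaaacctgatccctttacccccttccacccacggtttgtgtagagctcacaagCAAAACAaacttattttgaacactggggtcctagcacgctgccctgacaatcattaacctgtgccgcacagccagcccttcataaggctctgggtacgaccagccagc
G6pc: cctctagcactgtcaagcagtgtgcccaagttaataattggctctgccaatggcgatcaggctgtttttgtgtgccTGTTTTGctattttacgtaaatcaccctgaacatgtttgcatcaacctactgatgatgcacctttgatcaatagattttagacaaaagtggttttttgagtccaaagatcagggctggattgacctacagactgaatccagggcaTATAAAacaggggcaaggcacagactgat
Irs1: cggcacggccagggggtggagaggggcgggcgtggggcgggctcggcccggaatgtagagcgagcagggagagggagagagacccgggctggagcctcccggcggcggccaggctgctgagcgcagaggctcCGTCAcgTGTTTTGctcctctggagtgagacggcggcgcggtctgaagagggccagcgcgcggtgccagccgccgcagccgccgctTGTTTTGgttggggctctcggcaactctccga
Irs2: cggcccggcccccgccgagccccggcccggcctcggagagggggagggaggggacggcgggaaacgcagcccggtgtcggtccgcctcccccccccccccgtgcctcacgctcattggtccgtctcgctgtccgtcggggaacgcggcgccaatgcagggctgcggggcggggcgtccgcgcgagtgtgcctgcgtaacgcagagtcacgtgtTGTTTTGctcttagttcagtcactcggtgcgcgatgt
Pck1: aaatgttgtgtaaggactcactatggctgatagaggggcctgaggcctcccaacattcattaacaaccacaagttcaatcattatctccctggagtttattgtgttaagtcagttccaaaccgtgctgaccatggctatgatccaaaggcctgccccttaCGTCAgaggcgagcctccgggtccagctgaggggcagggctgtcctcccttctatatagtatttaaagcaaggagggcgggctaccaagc

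CAAAACA stood at bases -108 to -102 from the start site of Igfbp1 and, on the other strand, at -174 to -168 of G6pc and -37 to -31 of Irs2. Irs1 held it on the other strand at -111 to -105 and again at -32 to -26. In all, 4 of the 7 genes had this motif, against 5.6% of 27025 mouse promoters of the same length. This is no test of enrichment, because the genes were chosen for their response to insulin or fasting and the motif is named for that response. TGACG was present in 3 of 7, Pck1 (-90 to -86), Irs1 (-118 to -114) and Ppargc1a (-49 to -45), against 17.9% of promoters. The exact letters GTAAACA, 1 form of the forkhead motif, were in no window of the 7 genes, against 3.1% of promoters. TATAAA was in G6pc and before 1 annotated start of Pfkfb1, against 13.0%. The shares count 1 promoter per gene, the first listed, while every listed window of the 7 genes was searched. The window of Ppargc1a (chr5:51567726-51567975, minus strand) lay inside the gene, which spans 51454249 to 52115853. Starts without a listed window were not searched. The first listed window of Pfkfb1 held no TATAAA. The motifs did not overlap one another. Igfbp1, G6pc, Irs1 and Irs2 thus share the same letters. The part of the motif in the level of any of these genes was not tested. A match is a description of the letters only.

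Igfbp1 is among the liver transcripts most acutely lowered by insulin. Its log2 ratio was 5.65, 5.98, 7.42 and 5.39 in control replicates 1 to 4, 5.99, 6.32, 5.51, 7.57 and 6.27 in replicates 1 to 5 at 1 mg/kg, and 7.63, 7.99, 6.87, 6.49 and 6.89 at 8 mg/kg. The 8 mg/kg mice were mostly high, but the groups overlapped because the control and low-dose mice on slide 3 were also high. With slide in the model, the difference was 1.10 ± 0.21 on the log2 scale (SE, 5 mice against 4; adjusted p = 0.0125). Within the slides it was 1.10, 1.98, 0.57 and 0.91 on slides 1 to 4. Every slide gave a positive difference. Against 1 mg/kg the 8 mg/kg mice were higher by 0.84 ± 0.20 (1.79-fold, adjusted p = 0.0254), again on every slide that could be compared (5 of 5), by 0.22 to 1.64. At 1 mg/kg against control the difference was 0.26 ± 0.21 (95% confidence interval -0.20 to 0.72, adjusted p = 0.821).

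The reference RNA held little Igfbp1, which limits this ratio. The reference spot read 36 to 48 in controls, 36 to 52.5 at 1 mg/kg and 42 to 150.5 at 8 mg/kg, over a local background of 20 to 26. The value of 150.5 came from 8 mg/kg replicate 1, the mouse on slide 2. In the 1 mg/kg group, 1 of 5 reference spots was not well above background. The liver spot was bright, at 1715.5, 2394.5, 7726 and 2350 in control replicates 1 to 4 and 15649.5, 15282, 6873, 8506 and 5173 in replicates 1 to 5 at 8 mg/kg. With the scanner software's own processed ratios the difference from control was 0.22 (adjusted p = 0.562), and the difference from 1 mg/kg was 0.015 (adjusted p = 0.973). From the liver channel after Aquantile scaling the difference from control was 1.50 (adjusted p = 0.000146), but the reference still enters that value through the normalization. From processed liver signals alone it was 1.43 and did not pass (adjusted p = 0.0753). The call was also lost without a slide term (1.06, adjusted p = 0.286), with slide as a random block (adjusted p = 0.0652) and without control replicate 1 (0.94, adjusted p = 0.0646). Over all 29 alternatives the difference from control stayed positive, between 0.22 and 1.50, and passed in 23.

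**Figure D2:**
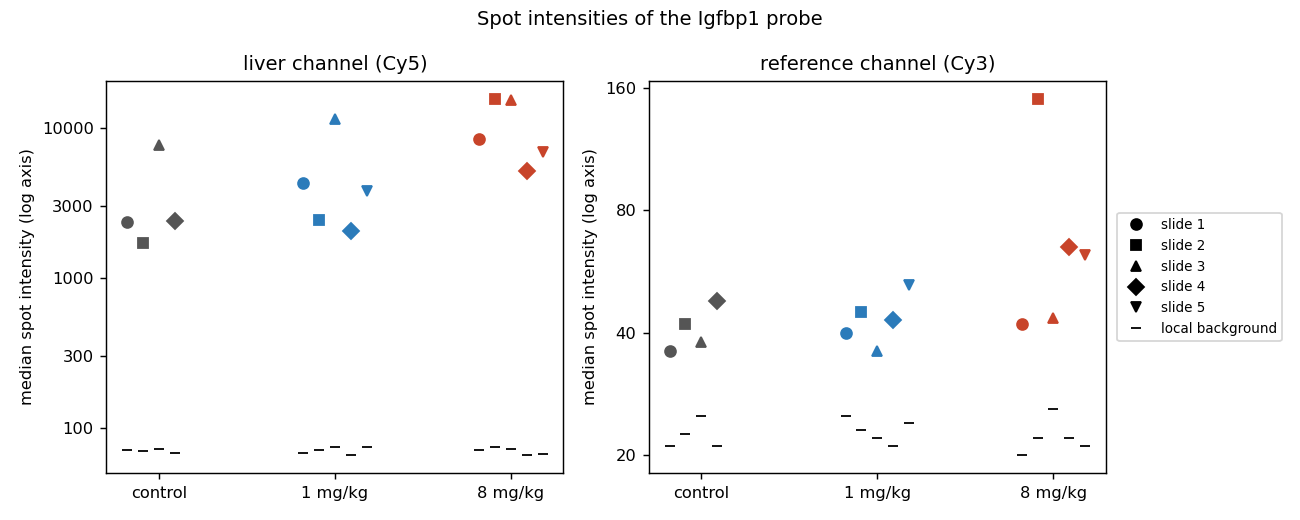
Median spot intensity of the Igfbp1 probe on each array (log axes) in the liver channel, left, and the reference channel, right; each point is 1 mouse, its shape gives the slide, and dashes mark the local background. The reference spots read 36 to 150.5 over a background of 20 to 26, while the liver spots read 1715.5 to 15649.5.

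Pck1 encodes cytosolic phosphoenolpyruvate carboxykinase, an early committed step of gluconeogenesis. Its log2 ratio was 8.71, 8.46, 10.02 and 8.81 in control replicates 1 to 4, 8.69, 8.33, 8.50, 9.85 and 9.05 at 1 mg/kg, and 8.35, 9.68, 8.17, 8.72 and 8.68 at 8 mg/kg. The 3 groups overlapped throughout, and the 3 highest mice were those of slide 3. The difference at 8 mg/kg from control was -0.14 (95% confidence interval -0.36 to 0.08, adjusted p = 0.47), with 3 of 4 slides below 0 and slide 4 at 0.22. The low dose differed from control by 0.02 (-0.20 to 0.24, adjusted p = 0.981). In the processed liver signal alone Pck1 fell at 8 mg/kg, at -0.45 (adjusted p = 0.0396).

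G6pc encodes the catalytic subunit of glucose-6-phosphatase, which releases free glucose from the hepatocyte. Its log2 ratio was 5.80, 5.50, 7.03 and 6.02 in control replicates 1 to 4, 5.70, 5.73, 5.48, 6.97 and 5.83 at 1 mg/kg, and 5.57, 6.73, 5.61, 5.95 and 5.48 at 8 mg/kg. The groups overlapped, and the slide 3 mice were again the highest of each group. The difference at 8 mg/kg from control was -0.16 (95% confidence interval -0.34 to 0.01, adjusted p = 0.275), with all 4 slides below 0, from -0.30 to -0.03. For the low dose it was -0.09 (-0.26 to 0.09, adjusted p = 0.843), also below 0 on 4 of 4 slides. Both intervals leave out a fold change of the size seen for Igfbp1. Pck1 and G6pc turned to 0.02 and 0.01 at 8 mg/kg when arrays were only centred on their medians, which moved the median of all features to 0.137.

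Pfkfb1 encodes the liver form of the bifunctional enzyme that makes and degrades fructose-2,6-bisphosphate, the activator of phosphofructokinase, and glucagon signalling turns it towards degradation. Its log2 ratio was 3.29, 3.55, 4.18 and 3.45 in control replicates 1 to 4, 3.62, 3.75, 3.67, 3.73 and 3.42 at 1 mg/kg, and 3.15, 3.04, 3.13, 3.18 and 2.71 at 8 mg/kg. Every 8 mg/kg mouse was below every control mouse and every 1 mg/kg mouse. The fall from control was -0.60 ± 0.14 on the log2 scale (SE, 5 mice against 4; adjusted p = 0.0299), and within slides it ranged from -1.14 on slide 3 to -0.14 on slide 2. The fall from 1 mg/kg was -0.60 ± 0.13 (adjusted p = 0.0169), below 0 on 5 of 5 slides. The 1 mg/kg and control mice differed by -0.004 (95% confidence interval -0.30 to 0.30, adjusted p = 0.997). Without slide 3 the difference from control was -0.43 (adjusted p = 0.124). The call was lost without any 1 of control replicates 2, 3 or 4, 1 mg/kg replicate 2, or 8 mg/kg replicates 2, 3 or 5 (adjusted p 0.0501 to 0.104). Slide 5 held only 1 mg/kg replicate 2 and 8 mg/kg replicate 3. With the slide term, omitting either of these gave the same fit. The call was also lost without a slide term (adjusted p = 0.0829), with processed ratios (adjusted p = 0.0947) and with median centring (-0.40, adjusted p = 0.17). Over the 29 alternatives the value stayed below 0, between -0.74 and -0.40, and passed in 14.

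**Figure D3:**
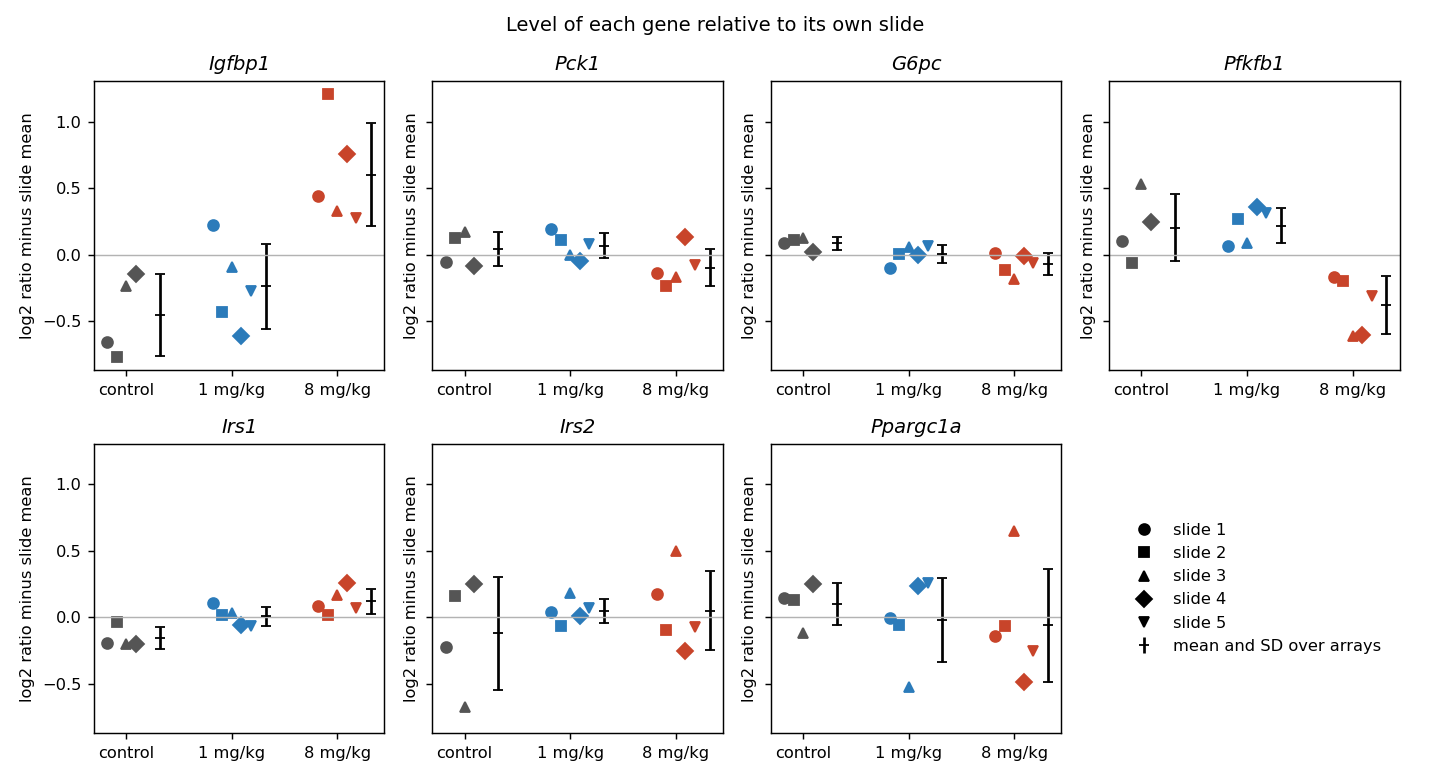
Log2 ratio of each gene after its slide's mean was subtracted (vertical axis, common scale) for control, 1 mg/kg and 8 mg/kg mice; each point is 1 mouse, its shape gives the slide, and bars show the group mean and SD. Igfbp1 had a mean of -0.45 in controls and 0.60 at 8 mg/kg, and Pfkfb1 of 0.20 and -0.38, while the group means of Pck1 and G6pc lay between -0.10 and 0.08.

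Irs1 and Irs2 encode the docking proteins that carry the insulin signal from its receptor, and insulin itself lowers hepatic Irs2. The log2 ratio of Irs1 was 0.77, 0.52, 0.81 and 0.79 in control replicates 1 to 4, 0.82, 0.69, 0.66, 1.04 and 1.09 at 1 mg/kg, and 0.82, 1.17, 0.83, 1.07 and 0.98 at 8 mg/kg. All 8 mg/kg mice lay above all control mice, with the low-dose mice spanning both. The difference at 8 mg/kg was 0.29 ± 0.085 (1.22-fold, 95% confidence interval 0.11 to 0.47), above 0 on 4 of 4 slides. It did not pass limma's test (adjusted p = 0.0721). With arrays only centred on their medians it was 0.51 and passed (adjusted p = 0.0202), the sole pass in 30 alternatives. The dimmer Irs1 probe cleared background on 2 of the 4 arrays of control mice and on every array of treated mice, and its difference was 0.20 (adjusted p = 0.33). The low-dose mice differed from control by 0.18 (-0.01 to 0.36, adjusted p = 0.727). Groups did not overlap at 8 mg/kg against control for 2 of the 7 genes, Irs1 and Pfkfb1, where this held for 5.58% of all features.

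The log2 ratio of Irs2 was -0.28, 0.06, -0.40 and -0.46 in control replicates 1 to 4, -0.51, -0.11, -0.18, 0.46 and -0.20 at 1 mg/kg, and -0.54, 0.78, -0.26, -0.06 and -0.45 at 8 mg/kg. The groups overlapped, and the treated mice on slide 3 were the highest in their groups while the control on that slide was low. The difference at 8 mg/kg was 0.19 (95% confidence interval -0.22 to 0.59, adjusted p = 0.632). It was -0.13 without slide 3 (adjusted p = 0.669), so its sign rested on that slide.

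Ppargc1a encodes PGC-1alpha, the coactivator that fasting induces in liver. Its brighter probe had log2 ratios of 2.09, 1.97, 2.61 and 2.44 in control replicates 1 to 4, 1.90, 2.23, 1.96, 2.20 and 2.29 at 1 mg/kg, and 1.90, 3.38, 1.72, 2.16 and 1.24 at 8 mg/kg. The 8 mg/kg group held both the highest mouse of all, replicate 2 on slide 3, and the lowest, replicate 5. The difference at 8 mg/kg was -0.17 (95% confidence interval -0.63 to 0.28, adjusted p = 0.703). Without replicate 2 it was -0.48. In the liver channel after Aquantile scaling, which still carries the reference through the normalization, the difference was -0.52 and passed (adjusted p = 0.0352). The dimmer probe had group means of 1.07 ± 0.33 in controls (SD, n = 4), 1.23 ± 0.14 at 1 mg/kg (n = 5) and 0.85 ± 0.51 at 8 mg/kg (n = 5), which overlapped, and its difference at 8 mg/kg from control was -0.23 (adjusted p = 0.394).

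None of the 7 genes passed limma's test at 1 mg/kg against control, where 0% of all features did. At an unadjusted p under 0.05 the count was 0 of 7, against 6.87% of features. Differences ranged from -0.13 for Ppargc1a to 0.26 for Igfbp1, and the comparison shares its 4 control mice with that of 8 mg/kg. Between the doses 2 of the 7 genes, chosen with earlier results of these data known, passed. They were Igfbp1, up, and Pfkfb1, down, where 5.29% of all features passed (2.41% higher and 2.88% lower). Both, and no other of the 7, also had an unadjusted p under 0.05, against 21.4% of features. Pfkfb1 alone of the 7 had doses that did not overlap, which held for 3.63% of features; between 1 mg/kg and control it held for none of the 7 and 0.824% of features. The call between doses was lost for Igfbp1 without any 1 of replicates 1, 2 or 3 at 1 mg/kg or 1, 3 or 5 at 8 mg/kg, and for Pfkfb1 without 1, 2 or 3 at 1 mg/kg or 3 or 5 at 8 mg/kg. Omitting replicate 2 at 1 mg/kg or replicate 3 at 8 mg/kg, the only arrays of slide 5, is the same fit.

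**Figure D4:**
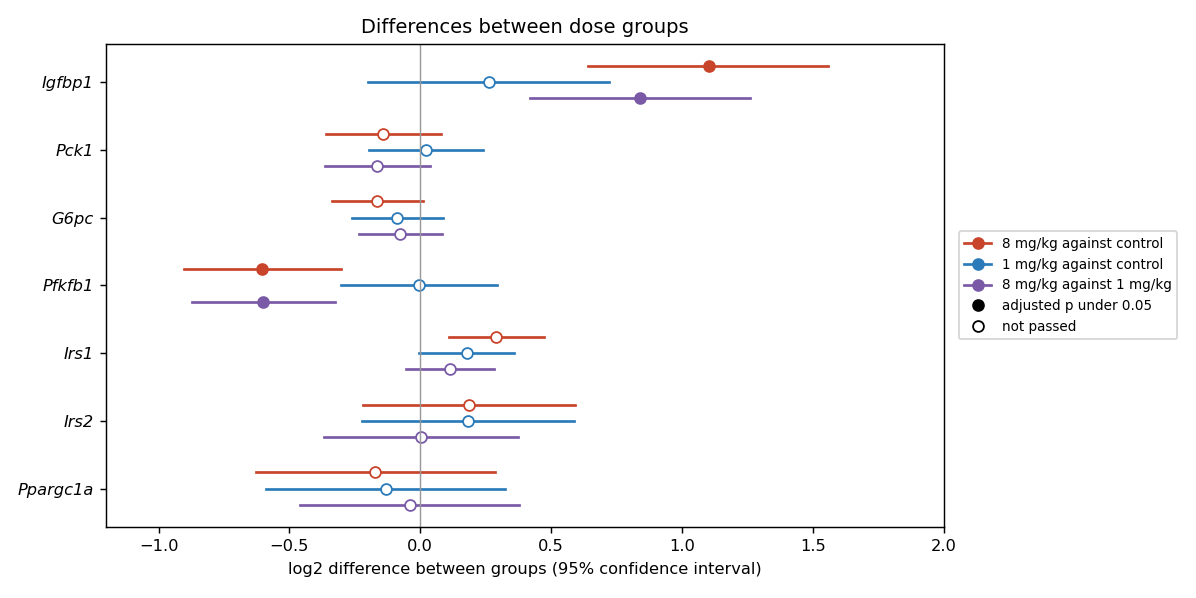
Log2 difference between groups (horizontal axis) with its 95% confidence interval for each gene and comparison; filled points had an adjusted p under 0.05 over all features. Igfbp1 (1.10 and 0.84) and Pfkfb1 (-0.60 and -0.60) passed in both comparisons of the 8 mg/kg group, and no gene passed at 1 mg/kg against control.

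After each slide's mean was subtracted, the 7 genes did not move as one over the 14 arrays. Igfbp1 and Irs1 had a Pearson r of 0.62, and Igfbp1 and Pfkfb1 of -0.65. Pfkfb1 and Irs1 had -0.80, while Pck1 and G6pc had 0.48. Irs2 and Ppargc1a had 0.45 and each ran below 0 with Pck1. These correlations are descriptions: the arrays share the dose groups, so genes that differ with dose correlate for that reason too.

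The genes most like Igfbp1 over the 14 slide-centred arrays were the histone gene H2ac22 (r = 0.983), Osgin1, an oxidative stress target (0.978), and Hspb1, a small heat shock protein (0.972). All 3 rose at 8 mg/kg, by 0.55, 0.92 and 1.07. Dose was not removed, so genes this like Igfbp1 differ with dose through the choice, and their rise is no separate result. The gene most like Pfkfb1 was Pklr (0.972), then Wfs1 (0.968) and Acbd6 (0.966). Pck1 was nearest to Ces1b (0.952), Gcgr, the glucagon receptor (0.944), and Nfic (0.941). G6pc was nearest to Otub1 (0.960), St8sia1 (0.953) and Sds, the serine dehydratase of amino acid breakdown (0.938). Irs1 was nearest to Sirt1, a NAD-dependent deacetylase (0.944), Oxa1l (0.938) and Cdt1 (0.935). Irs2 was nearest to Crot (0.906), Tceal9 (0.875) and Zfp90 (0.862), and Ppargc1a to Gsto2 (0.911), Rcn2 (0.910) and Znrd1as (0.909).

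In each list of other genes of the same pathways 0 to 2 genes passed at 8 mg/kg against control, where 4.09% of all features did. Of 22 measured genes of gluconeogenesis and glucose output, 2 rose and none fell, with a median of 0.019. The count was 0 to 1 when any 1 array was left out. Both were lactate dehydrogenase subunits, Ldha (0.40 ± 0.10, adjusted p = 0.0338) and Ldhb (0.31 ± 0.08, adjusted p = 0.0482). Pcx, the pyruvate carboxylase that opens gluconeogenesis, was at -0.31 (adjusted p = 0.105). Among 29 genes of glycolysis and glucose uptake, 1 fell and none rose (median -0.02). It was Pklr, the liver pyruvate kinase (-0.57 ± 0.13, adjusted p = 0.0311). The count for this list was 0 to 3 with 1 array left out. None of 21 glycogen genes passed limma's test (0 to 2 with 1 array left out), and 7 had an unadjusted p under 0.05, against 20.3% of all features. Gbe1, the glycogen branching enzyme, was at 0.35, and Phkg2, a phosphorylase kinase subunit, at -0.27.

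Of 20 genes that feeding and insulin induce in liver, 2 fell and none rose, 18 lay below 0, and the median was -0.27 against 0.002 for all features. Those that passed were Acacb, whose product malonyl-CoA restrains fatty acid oxidation (-0.88 ± 0.13, adjusted p = 0.00196), and Pklr. The list's mean after slide centring was 0.42 in control replicate 3 and -0.44 in 8 mg/kg replicate 2, both on slide 3, and between -0.29 and 0.28 in all other mice. Without slide 3 only 1 gene passed and the median was -0.15, and with 1 array left out 1 to 3 passed. Of 26 other genes that fasting or FOXO1 raises, 2 rose and none fell (median 0.036): Sesn2, a stress-induced inhibitor of mTORC1 (0.76 ± 0.12, adjusted p = 0.0027), and Pdk4, which blocks pyruvate oxidation (0.85 ± 0.20, adjusted p = 0.0308). Without slide 3 the count was 1 and the median 0.012, and with 1 array left out 1 to 3 passed.

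In insulin and glucagon signalling, 1 of 41 genes rose and none fell (median 0.062): Eif4ebp1, the translation repressor that mTORC1 inactivates (0.31 ± 0.08, adjusted p = 0.0406). Of 36 transcriptional regulators of fasting genes, 1 rose and 1 fell (median 0.015). The corepressor Ncor1 rose by 0.42 ± 0.08 (adjusted p = 0.0153), and Nr0b2, the bile acid induced corepressor SHP, fell, at -1.02 ± 0.27 (adjusted p = 0.0488). The value for Nr0b2 was -0.57 without control replicate 3 and -1.34 without control replicate 1. Its call held only without control replicate 1 or 1 mg/kg replicates 1 or 4, and was lost in the other 11 omissions of 1 array. With 1 array left out, 0 to 2 signalling genes and 0 to 2 regulators passed. Over 29 alternatives, Acacb and Sesn2 passed in all 29, while Ldha, Ldhb, Pklr, Pdk4, Eif4ebp1, Ncor1 and Nr0b2 passed in 6 to 20. Without slide 3 the gluconeogenesis and signalling lists had no call, the regulators 1 and the glycolysis list 2. At 1 mg/kg against control no gene of these lists passed limma's test. Ldha was then at 0.42 (adjusted p = 0.658) and Eif4ebp1 at 0.29 (adjusted p = 0.704), both above 0 on 4 of 4 slides, and the doses differed by -0.01 and 0.02 for these genes.

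**Figure D5:**
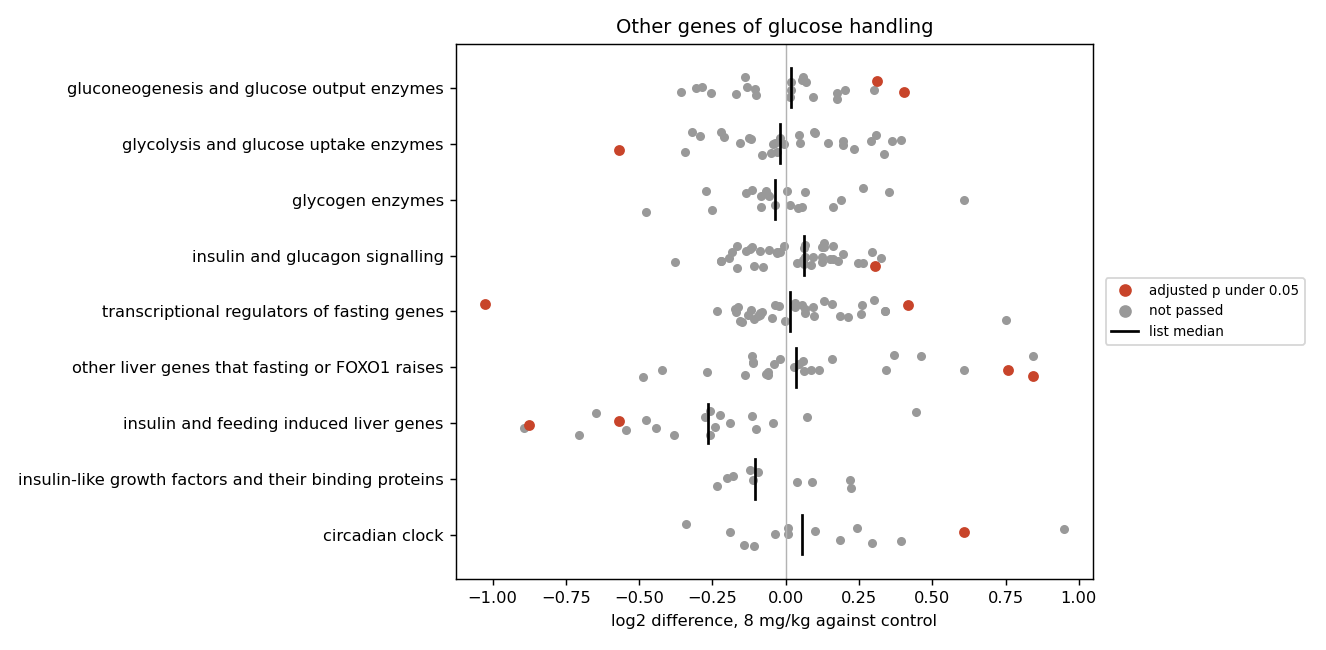
Log2 difference at 8 mg/kg against control (horizontal axis) for every measured gene of 9 lists of glucose handling, excluding the 7 genes described; red points had an adjusted p under 0.05 over all features and black lines are list medians. Medians lay between -0.10 and 0.06 except for the insulin and feeding induced genes at -0.27.

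The lists also held genes that passed between the doses, where 5.29% of all features did. Of 22 gluconeogenesis genes 2 fell, of 29 glycolysis genes 1 rose and 1 fell, and of 21 glycogen genes 1 rose. Of 41 signalling genes 1 rose and 1 fell, and of 36 regulators 2 rose. Of 26 other genes that fasting or FOXO1 raises 1 rose, and of 20 feeding induced genes 2 fell. Sesn2 (0.75), the PI3-kinase subunit Pik3r3 (0.48), Ncor1 (0.36), Gsk3b, the kinase that inhibits glycogen synthase (0.35), and Pfkfb3, an inducible relative of Pfkfb1 (0.65), were higher at 8 mg/kg. Acacb (-0.67), Pklr (-0.47), Pcx (-0.36), the mTORC1 inhibitor gene Tsc1 (-0.34) and Slc25a13, the mitochondrial aspartate-glutamate carrier (-0.33), were lower, with adjusted p-values from 0.00164 to 0.0406 over these 10 genes. Sesn2 and Pik3r3 passed in all 29 alternatives, Acacb in 28, Slc25a13 in 23, Ncor1 in 19, Tsc1 and Pfkfb3 in 17, Pcx and Gsk3b in 15 and Pklr in 10. Leaving out 1 array lost the call of Pklr in 9 of 14 omissions, of Pfkfb3 and Tsc1 in 8 and of Pcx and Gsk3b in 7. Nr4a2, the other regulator that rose, lay at the threshold (0.38, adjusted p = 0.05 after rounding). It passed in 4 of 29 alternatives, and its call was lost in all 14 omissions. With the scanner's processed ratios Pklr was at 0.20 between the doses. Pfkfb3 and Pfkfb1 thus moved in opposite directions between the doses. Against control Pfkfb3 was at 0.36 (adjusted p = 0.284) and Pik3r3 at 0.26 (adjusted p = 0.0894).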

How the data were processed

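The authors deposited scanner output for 14 two-colour arrays; per the file headers, each spot has a median intensity and local background per channel from Feature Extraction 10.7.3.1. The authors also deposited a table of linear ratios of liver over reference, normalized in a way not given in the sources used here, used as an alternative. Per the labels, mice of a group are biological replicates, all arrays have the same dye orientation, and blocks were randomized.

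Median intensities were corrected with normexp (offset 50) and normalized by loess within each array, without control spots. Spots with outlier flags were removed after normalization. Probes had to be well above background on at least 4 of 14 arrays, which left 28867 of 55681. The brightest probe stood for a gene. Between 23065 and 29850 probes per array were well above background, and precision is limited by how many arrays there are. Accessions were matched to RefSeq (GRCm38.p6), which named 26413 probes. Groups were compared in limma 3.58.1 under R 4.3.3 (lmFit, eBayes), fitting all arrays with a fixed slide block, at a Benjamini-Hochberg threshold of 0.05. On simulated data with 200 changed features of 21963, 98% of log2 changes of 1 and 68% of 0.5 were recovered. Plots used Python 3.11.15 and matplotlib 3.10.9.

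The 7 genes and the lists were chosen with earlier results of these data known. Named list genes are those that passed in any comparison and the 2 of smallest p per list at 8 mg/kg; likeness takes the 3 genes of highest r per member. Alternatives covered the slide term, background, normalization, channel, filter, probe choice, slide 3 and each array in turn. Omitting 1 mg/kg replicate 2 or 8 mg/kg replicate 3, the only arrays of slide 5, gave the same fit. Both are counted among the alternatives and omissions. A dimmer probe and processed liver signals alone were added after seeing the data. The alternative called the liver channel alone took that channel after loess and Aquantile scaling, which use both channels. Replicate numbers were not taken to pair the mice: over 13 same-numbered pairs the mean correlation of deviations was -0.02, and 5 were over 0.1. Slide was not removed from these deviations, and over 13 same-slide pairs the mean was 0.31. The check therefore cannot decide whether the numbers pair the mice.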

Additional observations from a re-analysis of the deposited data

Results flagged for a closer look

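The G6pc level of 1 mg/kg replicate 4, at a log2 ratio of 6.97, stood far from the nearest of its group at 5.83. This mouse was on slide 3, whose control and 8 mg/kg mice also had the highest G6pc of their groups (7.03 and 6.73). The Irs1 level of control replicate 2, at 0.52, stood below the nearest control at 0.77. In the 21 groups of members and doses tested, 2 values stood out in this way, and chance flags about 1 in 20.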

How the results depend on the processing

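The number of arrays, the slide and the faint Igfbp1 reference signal limit these results. At 8 mg/kg against control 899 features and 2 of the 7 genes passed. Without a slide term the counts were 274 and 0, with the replicate block in place of slide 122 and 0, with the replicate block and slide 536 and 1, without slide 3 402 and 1, with only the groups compared 304 and 1, and with the scanner's processed signals 388 and 0. Median centring gave 1351 features (96.4% of them higher, against 66.7%); the liver channel alone gave 1138 (55.4% higher) and processed liver signals alone 848 (47.9% higher). Of the 7 genes 1 passed with slide as a random block and 1 with processed liver signals alone. Leaving out each array in turn gave 317 to 869 features, lowest when 8 mg/kg replicate 1 was omitted, and 1 to 2 of the 7. Between the doses 1162 features and 2 of the 7 passed; the counts were 298 and 0 without a slide term, 150 and 0 with the replicate block in place of slide, 433 and 0 with processed signals, 405 and 1 with median centring, and 689 and 0 with processed liver signals alone. With slide as a random block 1 of the 7 passed. With 1 array left out the counts were 424 to 1247 and 0 to 2. The higher share between doses was 45.6%, and 62.1% without slide, 68% with the replicate block, 64.4% with processed signals and 68.1% with median centring. At 1 mg/kg against control the count of 0 became 1 with no background correction, with the authors' ratios and with no filter, 4 with median centring, and 0 to 3 with 1 array left out. Whether the replicate numbers pair the mice could not be decided. The causes of these changes were not tested.

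Igfbp1 and Pfkfb1 kept their direction at 8 mg/kg in all 29 alternatives, against control and between the doses. Of the values that changed sign, Pklr between the doses had passed (-0.47); the others had not, and none passed with the sign turned. At 8 mg/kg against control, median centring gave Pck1 0.016, G6pc 0.014 and Ppargc1a 0.050, the replicate block and slide gave Ppargc1a 0.025, and Irs2 was -0.132 without slide 3 and -0.035 with processed liver signals alone. Igf1, at 0.22, was -0.034 with the mean of its probes. At 1 mg/kg against control, Pck1 was -0.115 without slide, -0.052 with a random block, -0.131 with the replicate block in place of slide, -0.058 with the replicate block and slide, -0.052 with processed signals, -0.019 with the liver channel alone, -0.036 with the authors' ratios and -0.107 with processed liver signals alone. Pfkfb1 was 0.020, 0.009, 0.089 and 0.093 under the first 4 of these, 0.147 without slide 3, 0.005 with no background correction and 0.174 with median centring. G6pc was 0.083 with median centring, and Irs2 -0.057 without slide 3. Ppargc1a was 0.065 with the replicate block and slide, 0.023 with median centring, 0.013 with the mean of probes and 0.158 with its dimmer probe. Between the doses, Irs2 was -0.075 without slide 3, -0.008 with no background correction and with processed signals, -0.006 with median centring, -0.054 with the liver channel alone and -0.104 with processed liver signals alone. Ppargc1a was 0.044 with processed signals, 0.026 with median centring and 0.038 with the authors' ratios. G6pc was 0.057 with the liver channel alone and 0.019 with processed liver signals alone, and Pklr was 0.199 with processed signals.

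With 1 array left out, values at 8 mg/kg against control were -0.093 to 0.370 for Irs2 and -0.479 to 0.007 for Ppargc1a. At 1 mg/kg against control they were -0.041 to 0.088 for Pck1, -0.138 to 0.159 for Pfkfb1, -0.096 to 0.368 for Irs2 and -0.247 to 0.081 for Ppargc1a. Between the doses they were -0.163 to 0.124 for Irs2 and -0.313 to 0.119 for Ppargc1a.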

Other observations

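Of 14 measured clock genes, whose levels follow feeding and time of day, 1 passed at 8 mg/kg against control, where 4.09% of all features did. Clock rose by 0.61 ± 0.16 on the log2 scale (adjusted p = 0.0444), on 3 of 4 slides. It passed in 14 of 29 alternatives. Arntl, the partner of Clock, was at 0.95 (adjusted p = 0.0512), was between 0.67 and 1.82 over 28 alternatives and passed in 8. Its log2 ratio was -1.87, -1.72, -2.02 and -2.24 in control replicates 1 to 4 and 0.11, -0.83, -1.50, -0.99 and -1.96 in replicates 1 to 5 at 8 mg/kg. The groups overlapped through 8 mg/kg replicate 5 alone. Between the doses 1 of the 14 rose and 1 fell, where 5.29% of all features passed. Arntl rose by 1.07 ± 0.23 (adjusted p = 0.0184, 5 of 5 slides) and Per3, a repressor arm gene of the clock, fell, at -0.52 ± 0.12 (adjusted p = 0.0293, 5 of 5 slides). Between the doses Arntl passed in 21 of 28 alternatives and Per3 in 15 of 29. The list's median was 0.054 at 8 mg/kg against control. The part of clock time in the levels of Igfbp1 and Pfkfb1 was not tested.

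None of 10 insulin-like growth factor and binding protein genes other than Igfbp1 passed limma's test at 8 mg/kg against control (2 at an unadjusted p under 0.05, where 20.3% of all features were), and their median was -0.10. Igf1 was at 0.22 (adjusted p = 0.222) and Ghr, the growth hormone receptor, at -0.18 (adjusted p = 0.215). Between the doses Ghr alone of the 10 passed, where 5.29% of all features did. Ghr fell, at -0.27 ± 0.07 (adjusted p = 0.0468), and it passed in 6 of 29 alternatives.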
